A study of Mus musculus with 7 samples.

Results

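The mitochondrial respiratory chain was examined through the messenger RNA of its nuclear-encoded subunits in cells sorted from the mouse intestine. Members were all genes on the array whose name begins with Ndufa, Ndufb, Ndufc, Ndufs, Ndufv, Uqcr, Sdh, Cox4, Cox5, Cox6, Cox7, Cox8 or Atp5. That rule gave 91 of 28146 gene names, and 88 of the 91 were measured among 17398 genes tested. The other 3, Cox7b2, Cox8b and Cox8c, are tissue isoforms of cytochrome c oxidase whose probes stood above background on 0 arrays. Of the 91 genes 81 encode subunits, 36 in complex I, 4 in complex II, 8 in complex III, 18 in complex IV and 15 in complex V, and 78 of the 81 were measured. The rule also took 6 assembly factors (Ndufaf1 to Ndufaf4, Sdhaf1 and Sdhaf2) and the supercomplex factor Cox7a2l. A further 3 genes, Atp5s, Atp5sl and Cox4nb, were counted here neither as subunits nor as assembly factors. They are now called Dmac2l, Dmac2 and Emc8, and Emc8 is a part of the endoplasmic reticulum membrane complex.

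The 3 CD24 levels of Dll1 cells were compared with each other and with 1 sample of Lgr5 cells. The CD24 low, CD24 medium and CD24 high groups were GFP-high cells of Dll1-EGFP-ires-CreERT2 mice, in which green fluorescent protein is made under the promoter of the Notch ligand Dll1, sorted by their level of the surface protein CD24. Each level had 2 biological replicates. The Lgr5 group was the GFP-high fraction of Lgr5-EGFP-ires-CreERT2 mice, which marks crypt base stem cells, with 1 array. Age, and how many animals gave each sample, are not in the labels, so p-values measure the spread between these samples. Every sample was hybridised together with RNA of whole small intestine on 1 of 7 dual-colour Agilent arrays. Levels are given as log2 of the sample over that RNA, so that 0 means the same as in whole intestine, and the dyes were never exchanged, so that only differences between groups are free of a dye effect.

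The respiratory chain sits in the inner mitochondrial membrane. Complexes I and II take electrons from NADH and succinate, complex III passes them to cytochrome c, complex IV passes them on to oxygen, and complex V, the ATP synthase, uses the proton gradient so made. All of complex II is encoded in the nucleus, whereas each of the other complexes also holds subunits encoded by mitochondrial DNA. In the crypt, Lgr5 stem cells lie between Paneth cells, and their use of oxidative metabolism has been set against the more glycolytic metabolism of Paneth cells.

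Cell type markers differed between the sorted groups. The 6 measured Paneth genes (Lyz1, Lyz2, Ang4, Mmp7, Itln1 and Pla2g2a) had medians of −2.41 and −2.33 in CD24 low, −0.53 and −0.12 in CD24 medium, 4.82 and 4.84 in CD24 high and −2.85 in Lgr5 cells. The 8 goblet genes had medians of 3.91 and 3.15, 3.29 and 3.06, 2.05 and 1.86, and −2.40 in the same order. The 8 enteroendocrine genes gave medians of 1.5 and 3.35 for CD24 low, 3.01 and 4.78 for CD24 medium, −0.53 and −0.13 for CD24 high and −0.88 for Lgr5 cells, so that CD24 low and CD24 medium overlapped. The median of the 8 crypt base stem genes was highest in Lgr5 cells, at 1.77. The median of the 10 enterocyte genes lay between −4.83 and −2.67 on the 7 arrays, and single genes between −7.05 and −0.89. Gene spots above background made up 42.5 to 44.4% in CD24 high and 52.8 to 60.5% on the other arrays. Replicates correlated across genes at r = 0.903 to 0.938, where genes are not independent points.

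Respiratory chain genes were lowest in CD24 high cells and highest in Lgr5 cells. The median over the 78 subunits was −0.28 and −0.40 on the CD24 low arrays, −0.42 and −0.48 on the CD24 medium arrays, −0.58 and −0.73 on the CD24 high arrays, and 0.06 on the Lgr5 array. The median over all genes stayed between 0.00 and 0.09 on the 7 arrays. The loess normalisation within each array holds it there, so it is no independent baseline. Lgr5 cells had the highest group mean in 75 of 88 members (85.2%), against 30.5% of 17234 genes with a value in all groups, and CD24 high cells the lowest in 65 members (73.9%), against 28.1%. Both held for 60 members (68.2%), against 16.3%. These are shares of the RNA in bulk samples, in which fewer cells of a type and less RNA per cell cannot be told apart.

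The order of the groups was alike in the complexes, and its steps differed in size. Complex I had medians of −0.24 and −0.41 in CD24 low, −0.32 and −0.48 in CD24 medium, −0.44 and −0.66 in CD24 high and 0.10 in Lgr5 cells. Complex IV had −0.23 and −0.56, −0.43 and −0.49, −0.97 and −1.15, and 0.14 in the same order. Its CD24 high arrays thus lay apart from all the others, which for complex I they did not, since the first CD24 high array overlapped with CD24 medium. Complex V had −0.37 and −0.30 in CD24 low, −0.53 and −0.47 in CD24 medium, −0.73 and −1.0 in CD24 high and −0.16 in Lgr5 cells. Complex III had 0.02 and −0.05, 0.01 and −0.31, −0.26 and −0.51, and 0.31. In complex II, which joins the citric acid cycle to the chain, CD24 low stood apart from CD24 medium too, with −0.80 and −0.70 against −1.09 and −1.12, while CD24 high had −1.28 and −1.34 and Lgr5 cells −0.48.

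**Figure D1:**
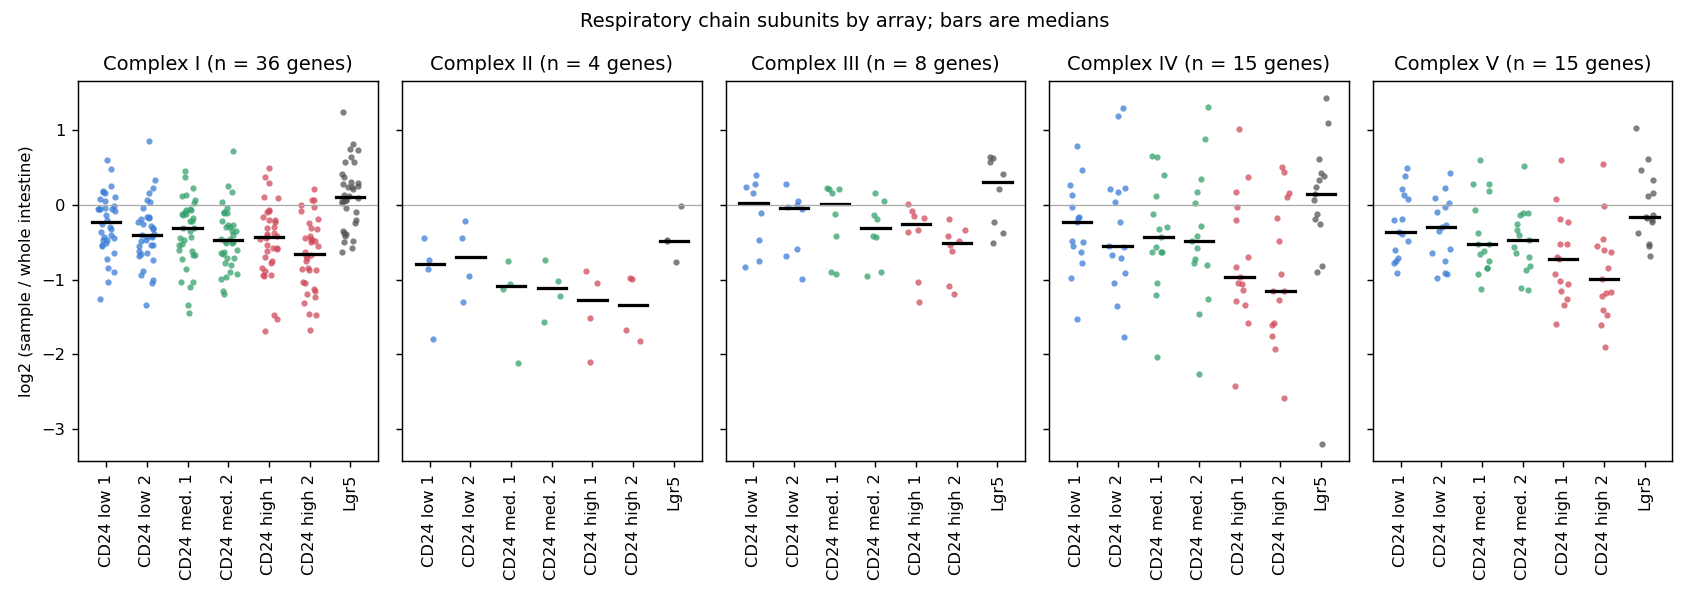
Each point is 1 measured subunit gene on 1 array, as log2 of the sample over whole small intestine, in 5 panels for complexes I to V, and black bars are medians. The bars of the CD24 high arrays lie lowest in complexes II, IV and V, and the Lgr5 bar is the highest in each panel, from −0.48 in complex II to 0.31 in complex III.

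**Figure D2:**
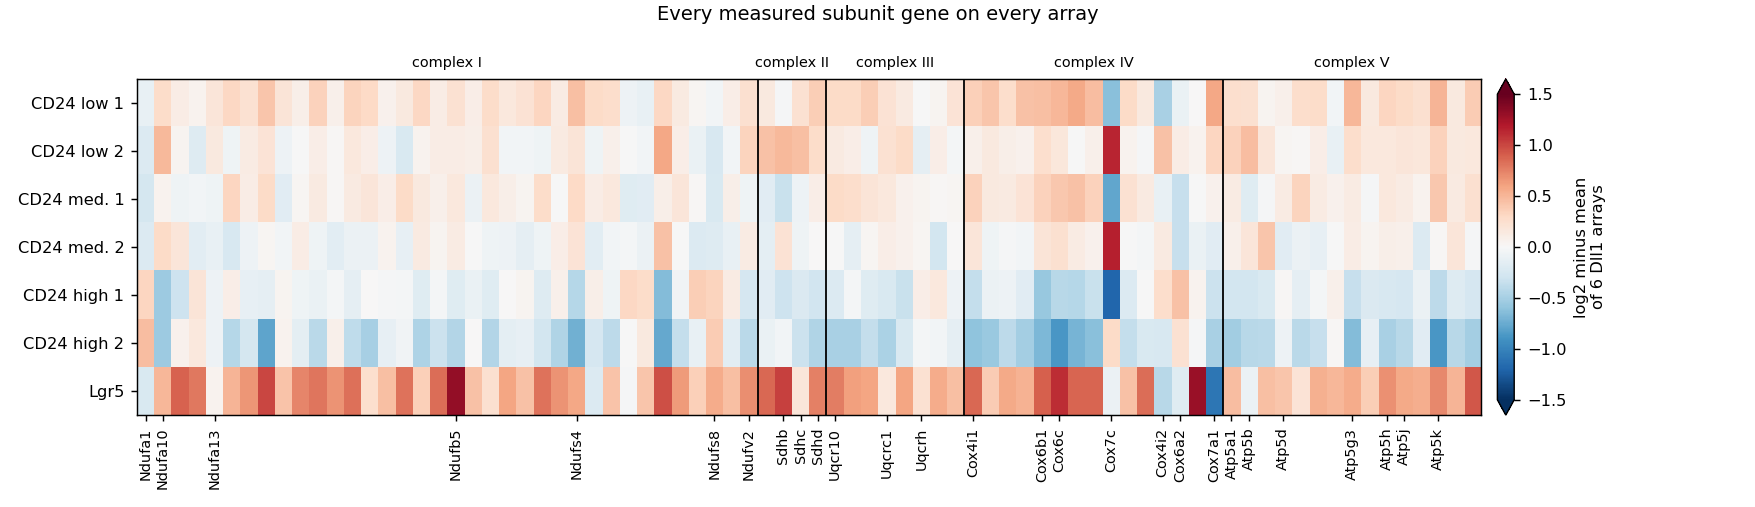
Colour gives the level of each of 78 subunit genes on each of 7 arrays after the mean of that gene over the 6 Dll1 arrays is taken off, on a log2 scale that saturates at 1.5 in both directions. Labels mark a selection of the genes that the text names. The Lgr5 row is mostly red and the CD24 high rows mostly blue, with Ndufa1, Ndufs8 and Cox6a2 running the other way between CD24 levels and Cox7c split by replicate number.

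Promoter sequence is given for 3 subunit genes on which the comparisons below turn, because motifs of factors known to act on respiratory chain genes occur there. RefSeq promoters (GRCm38.p6, 250 bases before the start to 50 after it) were found for 65 subunit genes. Both strands were searched for GCATGCGC, a core of the nuclear respiratory factor 1 motif, CCGGAAG of the ETS family, and AAGATGGC of YY1. A gene counted if any of its promoters held the motif, so genes with several promoters had more places to match. The first was present in 10 of 65 subunit genes (15.4%), against 3.9% of 17492 coding genes, the second in 16 (24.6%), against 12.9%, and the third in 10 (15.4%), against 3.6%. A match of letters is a description and not evidence of binding. In the 120 bases before the start, capitals mark the nuclear respiratory factor 1 motif in Atp5k (chr5:108434400-108434519, minus strand, where the motif occurs on both strands and overlaps itself) and in Sdhb (chr4:140961151-140961270, plus strand), and the ETS motif on the other strand in Cox6b1 (chr7:30626115-30626234, minus strand).
Atp5k: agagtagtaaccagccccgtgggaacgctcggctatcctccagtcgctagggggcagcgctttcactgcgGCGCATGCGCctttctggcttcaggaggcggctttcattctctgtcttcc
Sdhb: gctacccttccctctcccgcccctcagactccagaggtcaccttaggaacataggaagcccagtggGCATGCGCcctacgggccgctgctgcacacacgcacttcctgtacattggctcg
Cox6b1: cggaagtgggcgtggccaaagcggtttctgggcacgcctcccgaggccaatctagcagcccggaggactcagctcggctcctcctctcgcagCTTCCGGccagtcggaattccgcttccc

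Respiratory chain genes were higher in CD24 low than in CD24 high cells where they passed, with 1 exception. In limma's test with Benjamini-Hochberg adjustment over all genes, with a threshold of 0.05, 17 of 88 members (19.3%) were higher and 1 (1.14%) was lower, against 6.33% higher and 10.3% lower among all genes. The median difference of the members was 0.40, against 0.02 over all genes, and 74 of 88 differences were positive, against 51.9% of all genes. The 17 lay in all complexes, among them Ndufa10, Ndufs4 and Ndufv2 in complex I, Sdhc and Sdhd in complex II, Uqcrc1 in complex III, Cox4i1, Cox6b1, Cox6c and Cox7a1 in complex IV, and Atp5a1, Atp5b, Atp5g3, Atp5h, Atp5j and Atp5k in complex V. The calls were 4 higher and 1 lower of 36 in complex I (median 0.27), 2 of 4 in complex II (0.52), 1 of 8 in complex III (0.44), 4 of 15 in complex IV (0.60) and 6 of 15 in complex V (0.45). Without CD24 high replicate 2 the medians were 0.155 in complex I and 0.283 in complex III, and without CD24 low replicate 1 they were 0.168 and 0.286. None of the 6 assembly factors passed.

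Atp5k encodes subunit e, which helps to hold ATP synthase in pairs. Its level was 0.39 and 0.22 in CD24 low, 0.27 and −0.11 in CD24 medium, −0.52 and −1.0 in CD24 high and 0.60 in Lgr5 cells. Only CD24 high had a negative log2 ratio in both replicates, a sign that is not free of a dye effect. CD24 low was 2.09-fold above CD24 high (1.07 ± 0.22 SE, limma adjusted p = 0.024).

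Cox6c and Cox6b1 are small subunits of complex IV that mammals share across tissues, with probes on chromosome 15 at 35861751 to 35861810 and on chromosome 7 at 31409575 to 31411071 (mm9). Cox6c was at −0.23 and −0.56 in CD24 low, −0.33 and −0.49 in CD24 medium, −1.14 and −1.60 in CD24 high and 0.38 in Lgr5 cells. Cox6b1 was at −0.03 and −0.23, −0.13 and −0.29, −1.06 and −1.15, and 0.41 in the same order. Both genes gave overlapping low and medium values and a gap before CD24 high. CD24 low exceeded CD24 high 1.97-fold for Cox6c (limma adjusted p = 0.027) and 1.96-fold for Cox6b1 (limma adjusted p = 0.0092).

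Ndufa1, a small membrane-bound subunit of complex I encoded on the X chromosome (probe at 34727627 to 34727686 in mm9), was the member that was lower. It had −0.52 and −0.62 in CD24 low, −0.67 and −0.61 in CD24 medium, −0.08 and 0.05 in CD24 high, and −0.64 in Lgr5 cells. CD24 high stood above every other array. CD24 low was 1.47-fold below CD24 high (difference −0.55 ± 0.14 SE, limma adjusted p = 0.046), and its 2 probes gave −0.65 and −0.46.

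Leaving out 1 array changed these counts, which are given below without the share of all genes called in the same fit. Without CD24 high replicate 2 there were 2 calls, without CD24 low replicate 1 there were 4, without CD24 low replicate 2 there were 5, without either CD24 medium replicate 7, and without CD24 high replicate 1 there were 8. The call of Ndufa1 was lost without any of these 6 arrays, that of Cox6c without any but CD24 high replicate 1, and that of Atp5k without CD24 high replicate 2 or either CD24 low replicate, whereas Cox6b1 kept its call each time. With Agilent's processed signals, the median of all genes itself moved to 0.28 and that of the members to 0.47, so the members stood 0.18 above all genes, against 0.38 with the loess values. Paneth genes moved with the contrast, 6 of 6 lower in CD24 low, with a summed sample signal of 66820 to 76100 in CD24 low, 325200 to 343300 in CD24 medium, 4601000 to 4606000 in CD24 high and 45410 in Lgr5 cells, and none of the 6 was below background. Of the 8 enteroendocrine genes 4 were higher in CD24 low than in CD24 high, and of the 8 goblet genes 5 were higher and 1 lower. The part of these markers in the result was not tested.

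CD24 medium cells differed from CD24 high cells in the same direction, with fewer calls. Of 88 members 8 (9.09%) were higher and 3 (3.41%) were lower, against 6.95% higher and 12.4% lower among all genes, so that the share higher was near the background. The median difference was 0.28, against 0.00 over all genes, or 0.39 against 0.24 with Agilent's processed signals. Among the 8 were Ndufa10 and Ndufs4 of complex I, Cox4i1, Cox6b1 and Cox6c of complex IV, Atp5k of complex V and the supercomplex factor Cox7a2l. Cox6c was 1.95-fold higher (limma adjusted p = 0.026), Cox6b1 1.86-fold (limma adjusted p = 0.012) and Atp5k 1.79-fold (limma adjusted p = 0.044). The CD24 low and CD24 medium comparisons share their CD24 high arrays.

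The 3 members lower in CD24 medium were Cox6a2, Ndufa1 and Ndufs8. Cox6a2, the heart and skeletal muscle form of subunit 6a, was at −0.17 and 0.03 in CD24 low, −0.43 and −0.42 in CD24 medium, 0.37 and 0.15 in CD24 high and −0.26 in Lgr5 cells. CD24 medium was 1.61-fold below CD24 high (limma adjusted p = 0.03). Ndufa1 was 1.54-fold below it (limma adjusted p = 0.029). Ndufs8, a core iron-sulphur subunit of complex I, was at −0.84 and −1.04 in CD24 low, −1.03 and −0.99 in CD24 medium, −0.47 and −0.42 in CD24 high and −0.25 in Lgr5 cells, which put CD24 medium 1.48-fold below CD24 high (limma adjusted p = 0.04). In complex I the calls were 3 higher and 2 lower of 36 (median 0.20), in complex IV 3 higher and 1 lower of 15 (0.39), in complex V 1 higher of 15 (0.43), and 0 in complexes II (0.16) and III (0.33). Without CD24 high replicate 2 or CD24 medium replicate 2 there were 0 calls, without CD24 medium replicate 1 there was 1, and without CD24 high replicate 1 there were 6. The 3 lower calls were lost without any of these 4 arrays, and that of Atp5k without any but CD24 high replicate 1 among the 6 Dll1 arrays. The medians of complexes I and III were 0.088 and 0.193 without CD24 high replicate 2, that of complex III was 0.209 without CD24 medium replicate 1, and that of complex II was 0.287 without CD24 medium replicate 1 and 0.074 without CD24 medium replicate 2. Markers moved with this contrast too, the Paneth list downward in 6 of 6 and the enteroendocrine list upward in 8 of 8, with a summed enteroendocrine sample signal of 414900 and 1094000 on the CD24 medium arrays and 13610 and 20600 on the CD24 high arrays. Of 8 goblet genes 5 were higher and 1 lower, and of 10 muscle and mesenchyme genes 1 was higher and 6 lower. Their part in the result was not tested.

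No member passed between CD24 low and CD24 medium cells. In limma's test the count was 0 of 88, against 0% of all genes higher and 0.0977% lower. An unadjusted p under 0.05 in that test was found for 3 of 88 members, against 10.3% of all genes. The median difference was 0.08, against 0.04 over all genes, although 73 of 88 differences were positive, against 56.9% of all genes. Complex II had the highest median among the complexes, 0.35 over its 4 genes, or 0.537 without CD24 low replicate 1.

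**Figure D3:**
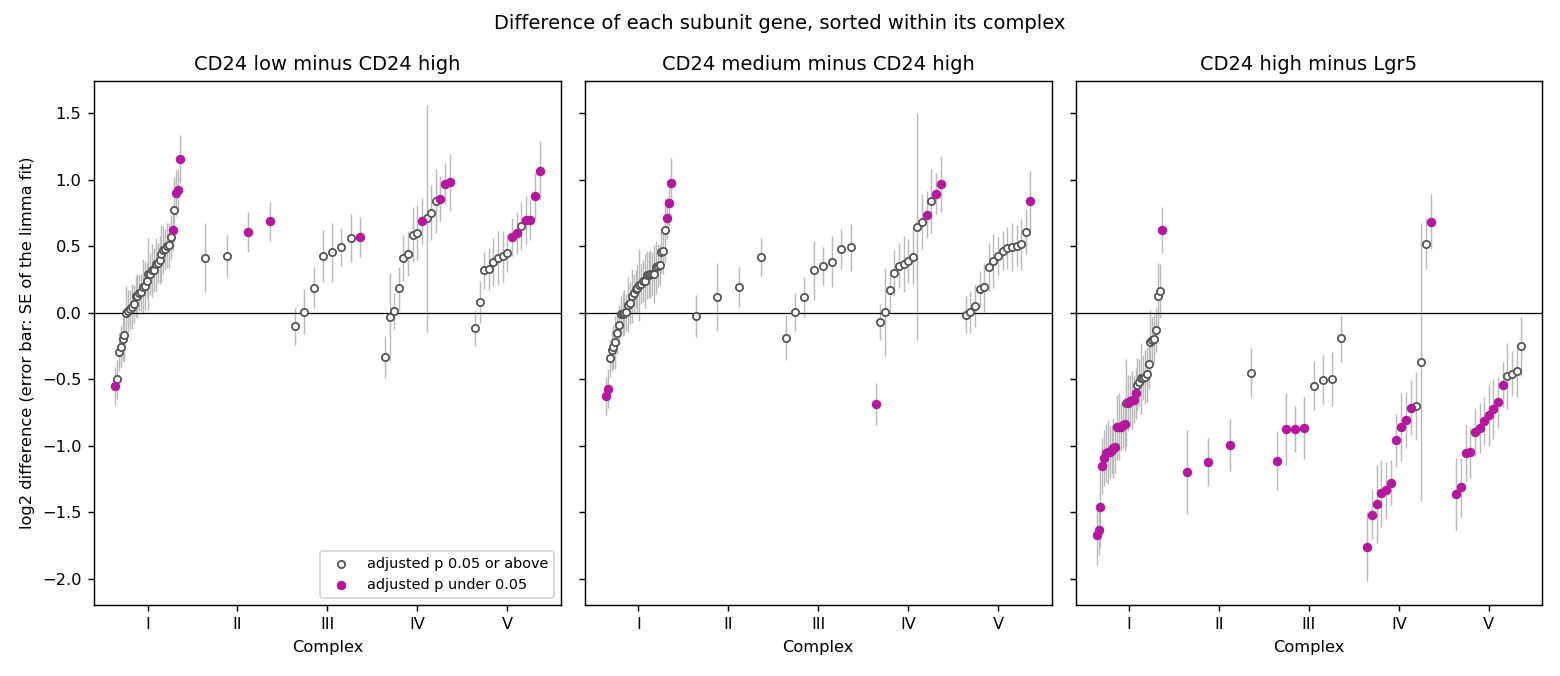
Each point is the log2 difference of 1 subunit gene with the SE of the limma fit, sorted within complexes I to V, for CD24 low minus CD24 high, CD24 medium minus CD24 high and CD24 high minus Lgr5, with filled points past an adjusted p of 0.05. Cox4i2 is left out of the panel with Lgr5, where it was not well above background. Most points lie above 0 in the first panels and below 0 in the last, where 48 of 78 subunits passed as lower.

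Most members were lower in CD24 high than in Lgr5 cells. Of 88 members 53 (60.2%) were lower and 2 (2.27%) higher, against 14% lower and 20.5% higher among all genes. The median difference was −0.77, against 0.10 over all genes, or −0.80 against −0.17 with Agilent's processed signals. The lower calls were 20 of 36 in complex I (median −0.67), 3 of 4 in complex II (−1.06), 4 of 8 in complex III (−0.71), 10 of 15 in complex IV (−0.86), 11 of 15 in complex V (−0.77) and 3 of the 6 assembly factors (−0.71). All 7 stalk and membrane subunits of complex V passed (median −0.90), as did 9 of 11 broadly expressed subunits of complex IV (−0.96), whereas 3 of the 7 core subunits of complex I did (−0.46). The Lgr5 group has 1 array and adds nothing to the estimate of the spread, so these tests assume that it varies like the Dll1 groups.

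Cox6c, Ndufb5 and Cox6b1 were among the members with the largest decreases. Cox6c was 3.38-fold lower in CD24 high than in Lgr5 cells (difference −1.76 ± 0.26 SE, limma adjusted p = 0.0038). Cox6b1 was 2.86-fold lower (limma adjusted p = 0.0021). Ndufb5, an accessory subunit in the membrane arm of complex I with its probe on chromosome 3 at 32650236 to 32650295 (mm9), was at −0.37 and −0.48 in CD24 low, −0.43 and −0.47 in CD24 medium, −0.78 and −1.03 in CD24 high and 0.73 in Lgr5 cells. The log2 ratio was negative on all 6 Dll1 arrays and positive on the Lgr5 array, signs that are not free of a dye effect. CD24 high was 3.10-fold below Lgr5 (limma adjusted p = 0.0017).

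Ndufa1 and Cox7a1 were the 2 members higher in CD24 high than in Lgr5 cells, Ndufa1 1.54-fold (limma adjusted p = 0.035) and Cox7a1 1.61-fold (limma adjusted p = 0.045). Both calls were lost without either CD24 high or either CD24 medium replicate, and with the sample channel alone the difference of Ndufa1 turned to −0.05. The number of calls in this comparison was 33 without CD24 high replicate 2. Within slide 1, which held the Lgr5 array, CD24 high replicate 1 and CD24 medium replicate 1, the median difference was −0.65 between CD24 high and Lgr5 and −0.46 between CD24 medium and Lgr5. The Paneth genes were higher in CD24 high cells in 6 of 6 and the stem cell genes lower in 7 of 8, and their part in the result was not tested.

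CD24 low cells were below Lgr5 cells as well, in fewer members. Both CD24 low arrays were on slide 2 and the Lgr5 array on slide 1, so this comparison has no estimate within a slide. A slide effect can be separated from it only through the CD24 medium and CD24 high arrays. With a term for the slide the median difference of the members was −0.286, against 0.125 over all genes. Of 88 members 13 (14.8%) were lower and 1 (1.14%) higher, against 9.2% lower and 11.2% higher among all genes, with a median of −0.41 against 0.11. The 13 were Ndufa7, Ndufa11, Ndufa12, Ndufb4, Ndufb5 and Ndufs8 of complex I, Cox6b2 and Ndufa4 of complex IV, the assembly factors Ndufaf1, Ndufaf2 and Sdhaf1, Cox7a2l and Cox4nb. No subunit of complexes II, III and V passed, with medians of −0.50, −0.40 and −0.34. Ndufb5 was 2.22-fold lower (limma adjusted p = 0.011). Cox7a2l, which takes part in joining complexes III and IV into supercomplexes, was at −0.54 and −0.33 in CD24 low, −0.17 and 0.04 in CD24 medium, −0.85 and −0.70 in CD24 high and 0.55 in Lgr5 cells, 1.99-fold lower in CD24 low than in Lgr5 cells (limma adjusted p = 0.02). Cox4nb was 2.05-fold lower (limma adjusted p = 0.029). Leaving out CD24 low replicate 1 gave 9 calls, CD24 low replicate 2 gave 4 and either CD24 medium replicate 5, and a term for the slide gave 2. Cox4nb lost its call without CD24 low replicate 2 or either CD24 medium replicate, and Ndufb5 and Cox7a2l with the slide as a term.

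CD24 medium cells gave 15 members lower than Lgr5 cells (17%) and 1 higher (1.14%), against 8.44% and 9.47% of all genes, with a median of −0.53 against 0.09. The 15 were Ndufa7, Ndufa9, Ndufa12, Ndufab1, Ndufb4, Ndufb5 and Ndufs8 of complex I, Sdha and Sdhd of complex II, Cox6b2 and Ndufa4 of complex IV, Atp5o of complex V, the assembly factors Ndufaf1 and Ndufaf2, and Cox4nb. Sdha, the flavoprotein that oxidises succinate, was at −0.74 and −0.44 in CD24 low, −1.05 and −1.02 in CD24 medium, −1.05 and −0.98 in CD24 high and −0.02 in Lgr5 cells. CD24 medium was 2.02-fold below Lgr5 for it (limma adjusted p = 0.017), and 2.26-fold for Ndufb5 (limma adjusted p = 0.011) and 1.98-fold for Cox4nb (limma adjusted p = 0.036). Without CD24 medium replicate 2 there was 1 call, without CD24 medium replicate 1 there were 2, without either CD24 high replicate 10, with Agilent's processed signals 5 and with a term for the slide 6. Sdha and Cox7a1 lost their calls without either CD24 medium replicate, Cox4nb without any CD24 medium or CD24 high replicate, and Ndufb5 without CD24 medium replicate 2. The 3 comparisons with Lgr5 share its array. Of the 8 stem cell genes 7 were lower at either of these levels, and all 8 goblet genes were higher, and their part in these results was not tested.

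Assembly factors put complexes together without staying in them. Ndufaf1, which acts on the membrane arm of complex I, was at −0.12 and −0.14 in CD24 low, −0.03 and −0.16 in CD24 medium, −0.46 and −0.65 in CD24 high and 0.77 in Lgr5 cells. It was lower than in Lgr5 cells by 1.86-fold in CD24 low (limma adjusted p = 0.02), 1.82-fold in CD24 medium (limma adjusted p = 0.024) and 2.5-fold in CD24 high (limma adjusted p = 0.003). Sdhaf2, which attaches the flavin of Sdha, lay between −0.57 and −0.28 on all 7 arrays and passed in no comparison, but its 4 probes ran from −0.36 to 0.21 between CD24 low and CD24 high.

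Subunits of complex IV that exist as tissue isoforms had other medians than their broadly expressed counterparts. The 11 broad subunits, with Ndufa4 counted among them, had a median difference of 0.69 between CD24 low and CD24 high, from 0.18 to 0.98. The 4 measured tissue isoforms had −0.01, from −0.33 to 0.86. Called as higher were 3 of the 11 and 1 of the 4, against 6.33% of all genes, and so few genes do not tell these shares apart. Cox6b2, known as the testis form of subunit 6b, with its probe on chromosome 7 at 4703488 to 4703547 (mm9), was at 0.13 and 0.17 in CD24 low, 0.11 and 0.02 in CD24 medium, 0.17 and 0.10 in CD24 high and 1.42 in Lgr5 cells. The 6 Dll1 arrays lay close together, and the Lgr5 array stood alone above them. Cox6b2 was lower than in Lgr5 cells by 2.41-fold in CD24 low (limma adjusted p = 0.0061), 2.55-fold in CD24 medium (limma adjusted p = 0.0054) and 2.43-fold in CD24 high (limma adjusted p = 0.0026).

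Cox7a1, the heart and skeletal muscle form of subunit 7a, ran against most of the other subunits in its comparison with Lgr5 cells. Its probe lies on chromosome 7 at 30970337 to 30970948 (mm9), and its level was −1.52 and −1.77 in CD24 low, −2.04 and −2.27 in CD24 medium, −2.42 and −2.59 in CD24 high and −3.19 in Lgr5 cells. The log2 ratio was negative on every array, which is not free of a dye effect, and the 4 groups did not overlap. CD24 low exceeded CD24 high 1.81-fold (limma adjusted p = 0.02) and Lgr5 2.91-fold (limma adjusted p = 0.0062), and CD24 medium exceeded Lgr5 2.05-fold (limma adjusted p = 0.02). Muscle and mesenchyme genes had medians from −3.70 to −2.14. Against Lgr5 cells, 5 of 10 passed as higher in CD24 low, where all 10 were positive, 9 in CD24 high and 1 in CD24 medium. Between CD24 low and CD24 high, where Cox7a1 was higher, 8 of the 10 were negative and 3 passed as lower. The part of these genes in the result was not tested. The broad form, Cox7a2, was at 0.78 and 0.21 in CD24 low, 0.65 and 0.33 in CD24 medium, −0.21 and −0.48 in CD24 high and 1.09 in Lgr5 cells, 2.71-fold lower in CD24 high than in Lgr5 cells (limma adjusted p = 0.012).

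Subunit 4, through which complex IV responds to ATP, has a broad form, Cox4i1, and a form known from lung and low oxygen, Cox4i2. Cox4i1 was at −0.63 and −0.91 in CD24 low, −0.64 and −0.81 in CD24 medium, −1.34 and −1.58 in CD24 high and −0.13 in Lgr5 cells. CD24 high was 2.52-fold below Lgr5 (limma adjusted p = 0.0051), and CD24 low 1.61-fold above CD24 high (limma adjusted p = 0.045). Cox4i2 was at 0.26 and 1.19 in CD24 low. It was at 0.64 and 0.88 in CD24 medium. The CD24 high arrays gave 1.01 and 0.50. It was not well above background in Lgr5 cells, and its replicates spread wider than any difference between levels. Cox6a1, the broad partner of Cox6a2, was at −0.98 and −1.36 in CD24 low, −1.21 and −1.46 in CD24 medium, −1.58 and −1.92 in CD24 high and −0.89 in Lgr5 cells, and passed against Lgr5 in CD24 high only (1.81-fold lower, limma adjusted p = 0.042). Cox8a was at 0.46 and 0.22, 0.39 and 0.17, −0.03 and −0.18, and 0.61 in the same order, 1.64-fold lower in CD24 high than in Lgr5 cells (limma adjusted p = 0.038). Ndufa4, once counted in complex I and now placed in complex IV, was at −0.55 and −0.72 in CD24 low, −0.57 and −0.73 in CD24 medium, −0.71 and −0.93 in CD24 high and 0.14 in Lgr5 cells. Against Lgr5 it was 1.71-fold lower in CD24 low (limma adjusted p = 0.039), 1.73-fold in CD24 medium (limma adjusted p = 0.04) and 1.95-fold in CD24 high (limma adjusted p = 0.012).

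The c ring of ATP synthase is built from 1 mature protein that 3 genes encode, Atp5g1, Atp5g2 and Atp5g3. Atp5g3 was at −0.75 and −0.98 in CD24 low, −1.13 and −1.14 in CD24 medium, −1.59 and −1.89 in CD24 high and −0.69 in Lgr5 cells. CD24 low was 1.84-fold above CD24 high (limma adjusted p = 0.019), and CD24 high 2.08-fold below Lgr5 (limma adjusted p = 0.011). Atp5g1 was at 0.07 and −0.11 in CD24 low, −0.08 and −0.33 in CD24 medium, −0.24 and −0.55 in CD24 high and 0.33 in Lgr5 cells, and passed in the last comparison alone (1.65-fold lower in CD24 high, limma adjusted p = 0.048). Atp5g2 lay between 0.42 and 0.60 on the 6 Dll1 arrays and at 1.03 in Lgr5 cells and passed in no comparison, but its 2 probes disagreed between CD24 low and CD24 high, at −0.78 and 0.55. Such a difference in sign between probes occurred in 10 of 26 members with several probes in that comparison, in 13 of 26 between CD24 medium and CD24 high, in 9 of 26 between CD24 low and CD24 medium and in 6, 4 and 6 of 26 for CD24 low, CD24 medium and CD24 high against Lgr5. It was widest in Ndufa12, from −1.72 to 0.65 over 3 probes between CD24 medium and CD24 high.

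**Figure D4:**
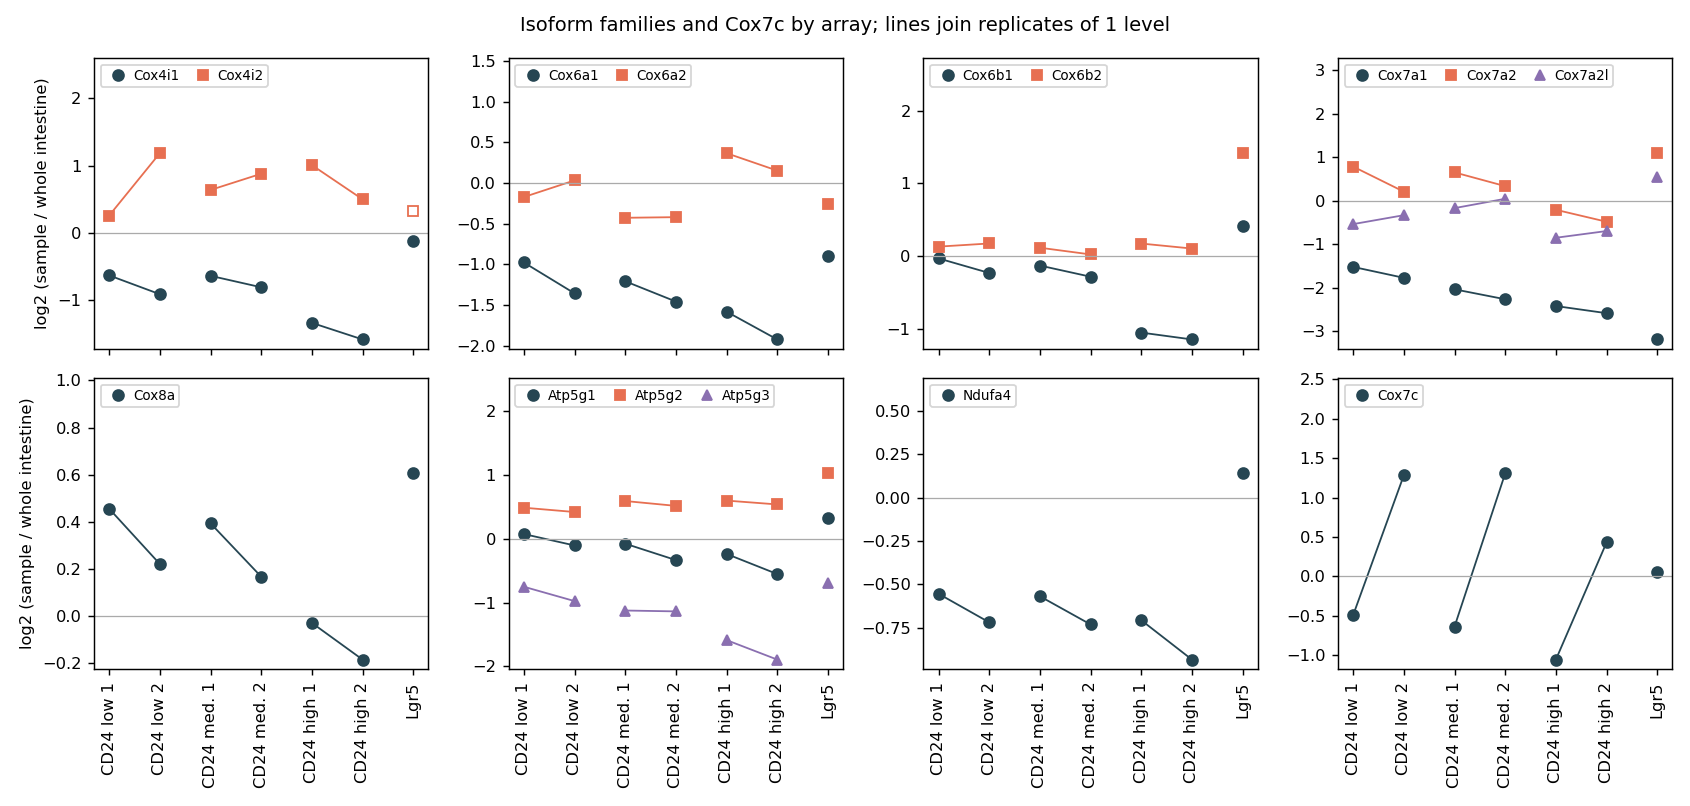
Levels of the isoform families of complexes IV and V, of Ndufa4 and of Cox7c on the 7 arrays, as log2 of the sample over whole small intestine, with lines that join the replicates of a CD24 level. Cox7a1 is lowest in Lgr5 cells, Cox6b2 is raised on the Lgr5 array alone, at 1.42, the open symbol of Cox4i2 was not well above background, and Cox7c differs by replicate number at each CD24 level.

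Cox7c, a broad subunit of complex IV, was the member with the poorest replication. It was at −0.49 and 1.28 in CD24 low, −0.63 and 1.31 in CD24 medium, −1.05 and 0.43 in CD24 high and 0.06 in Lgr5 cells. Replicate 2 was above replicate 1 by 1.77 in CD24 low, 1.94 in CD24 medium and 1.48 in CD24 high, where no other member exceeded 0.93, 0.54 and 0.38. The gap went with the replicate number and not with the slide, as both CD24 low arrays were on slide 2. Its difference between CD24 low and CD24 high, 0.71, had an SE of 0.85. The other members mostly went the other way, with replicate 2 lower in 61, 60 and 74 of 88 members and median gaps of −0.11, −0.09 and −0.18 in CD24 low, CD24 medium and CD24 high.

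Members of a complex differed in how far they moved. The widest and the narrowest range of group means belonged to Sdhb and Sdhc in complex II, Uqcr10 and Uqcrh in complex III, Cox6c and Cox4i2 in complex IV, and Atp5k and Atp5d in complex V. The range of Cox4i2 rests in part on its Lgr5 value, which was not well above background. Its CD24 low replicates, at 0.26 and 1.19, lay further apart than its group means. Sdhb, the iron-sulphur subunit of complex II, was at −1.80 and −1.29 in CD24 low, −2.11 and −1.57 in CD24 medium, −2.09 and −1.82 in CD24 high and −0.76 in Lgr5 cells, 2.29-fold lower in CD24 high than in Lgr5 cells (limma adjusted p = 0.029). Sdhc, a membrane anchor of the same complex, was at −0.45 and −0.22, −0.76 and −0.74, −0.89 and −1.0, and −0.49, and passed only between CD24 low and CD24 high (1.52-fold higher, limma adjusted p = 0.041). Uqcr10 was at 0.15 and 0.00 in CD24 low, 0.15 and −0.14 in CD24 medium, −0.34 and −0.63 in CD24 high and 0.63 in Lgr5 cells, 2.16-fold lower in CD24 high than in Lgr5 cells (limma adjusted p = 0.011). Uqcrh, the hinge protein of complex III, lay between −0.59 and −0.23 on the 7 arrays, but this is the mean of 2 probes with opposite differences, −0.52 and 0.32 between CD24 low and CD24 high and 0.25 and −0.64 between CD24 high and Lgr5. Ndufa13, the narrowest in complex I (−0.11 to 0.17), and Atp5d, the delta subunit of the catalytic head (−0.11 to 0.47), passed in no comparison, nor did Uqcrh.

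Mitochondrially encoded subunits were highest on the Lgr5 array, and none passed between CD24 levels. The array held probes named for ND4, CYTB, COX2 and ATP6, parts of complexes I, III, IV and V. Their median was −0.82 and −1.39 in CD24 low, −0.42 and −2.02 in CD24 medium, −0.88 and −1.61 in CD24 high and 0.62 in Lgr5 cells. Replicates thus differed more than levels did. COX2 was 5.34-fold lower in CD24 high than in Lgr5 cells (difference −2.42, limma adjusted p = 0.045), and no other of these 4 genes passed in any comparison. All 4 were lower in each Dll1 group than in Lgr5 cells, with median differences of −1.90 in CD24 low, −1.93 in CD24 medium and −1.77 in CD24 high. The array annotation places the COX2 and ATP6 probes in nuclear DNA on chromosome 1, and whether nuclear copies of mitochondrial sequence share their signal was not tested.

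The lists for the mitochondrial ribosome and for import and chaperones also had their lowest medians in CD24 high and their highest in Lgr5 cells. Of 76 measured genes of the mitochondrial ribosome, 14 (18.4%) were higher and 1 lower in CD24 low than in CD24 high (median 0.34), 11 (14.5%) higher and 2 lower in CD24 medium against CD24 high (0.31), and 56 (73.7%) lower in CD24 high than in Lgr5 cells (−0.99). The shares over all genes were 6.33%, 6.95% and 14%. Mrps10, a protein of its small subunit, was 2.26-fold higher in CD24 low than in CD24 high (limma adjusted p = 0.0041), and Mrps22 was 3.60-fold lower in CD24 high than in Lgr5 cells (limma adjusted p = 0.0019). Of 20 import and chaperone genes, 9 were lower in CD24 low, 10 in CD24 medium and 15 in CD24 high than in Lgr5 cells, with medians of −0.79, −0.89 and −1.16. These are 45%, 50% and 75% of the list, against 9.2%, 8.44% and 14% of all genes. Hspe1, the co-chaperonin of the mitochondrial matrix, was 5.04-fold lower in CD24 high (limma adjusted p = 0.0072).

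Of the 16 enzymes of the tricarboxylic acid cycle and the pyruvate dehydrogenase complex, 3 were lower and 1 higher in CD24 low than in Lgr5 cells (median −0.06), 3 were lower in CD24 medium (−0.26) and 5 in CD24 high (−0.48), and 5 were higher in CD24 low than in CD24 high (0.31). The lower calls are 18.8%, 18.8% and 31.2% of the list, against 9.2%, 8.44% and 14% of all genes, and the 5 higher ones 31.2%, against 6.33%. Fh1, fumarase, was at −0.53 and −0.64 in CD24 low, −0.58 and −0.77 in CD24 medium, −1.26 and −1.76 in CD24 high and 0.22 in Lgr5 cells, 3.33-fold lower in CD24 high than in Lgr5 cells (limma adjusted p = 0.0034). Idh3g, a subunit of NAD-dependent isocitrate dehydrogenase, was 3.47-fold lower (limma adjusted p = 0.0013). Ogdh, of the 2-oxoglutarate dehydrogenase complex, went the other way and was 2.23-fold higher in CD24 low than in Lgr5 cells (limma adjusted p = 0.012).

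Among 27 measured assembly factors of a wider list, 2 were higher and 1 lower in CD24 low than in CD24 high (median 0.20), and 14 were lower and 1 higher in CD24 high than in Lgr5 cells (−0.66). The 2 are 7.41% of the list, near the 6.33% of all genes, and the 14 are 51.9%, against 14%. Cox17, the copper chaperone that serves complex IV, ran against most of the measured subunits of that complex. It was at 2.03 and 2.21 in CD24 low, 1.88 and 2.03 in CD24 medium, 3.26 and 3.34 in CD24 high and 1.36 in Lgr5 cells. It was 2.26-fold lower in CD24 low than in CD24 high (limma adjusted p = 0.0041), 2.53-fold lower in CD24 medium than in CD24 high (limma adjusted p = 0.003) and 3.83-fold higher in CD24 high than in Lgr5 cells (limma adjusted p = 0.00084). Cox11, a further copper-handling assembly factor, was 1.74-fold higher in CD24 low than in CD24 high (limma adjusted p = 0.019).

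Of 14 further subunits and partners, among them cytochrome c and the adenine nucleotide carriers, 5 were higher and 1 lower in CD24 low than in CD24 high (median 0.42), and 6 were lower and 1 higher in CD24 high than in Lgr5 cells (−0.65). The 5 and the 6 are 35.7% and 42.9% of the list, against 6.33% and 14% of all genes. Slc25a4, a carrier of ATP and ADP, was higher 3.60-fold in CD24 medium against CD24 high (limma adjusted p = 0.021). Etfdh, which passes electrons of fatty acid oxidation to ubiquinone, was 1.69-fold lower in CD24 low than in CD24 high (limma adjusted p = 0.022).

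The 16 measured regulators of mitochondrial biogenesis had no common direction, with 2 higher and 3 lower in CD24 low than in CD24 high (median −0.07) and 2 higher and 5 lower in CD24 high than in Lgr5 cells (−0.17). These are 12.5% and 18.8% in the first comparison, against 6.33% and 10.3% of all genes, and 12.5% and 31.2% in the second, against 20.5% and 14%. Polrmt, the mitochondrial RNA polymerase, had −0.41 and −0.51 in CD24 low, −0.62 and −0.29 in CD24 medium, 2.15 and 4.11 in CD24 high and −0.25 in Lgr5 cells. Its CD24 high replicates differed by almost as much as the lower of them stood above the other arrays, and it was 12-fold lower in CD24 low than in CD24 high (limma adjusted p = 0.0094).

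**Figure D5:**
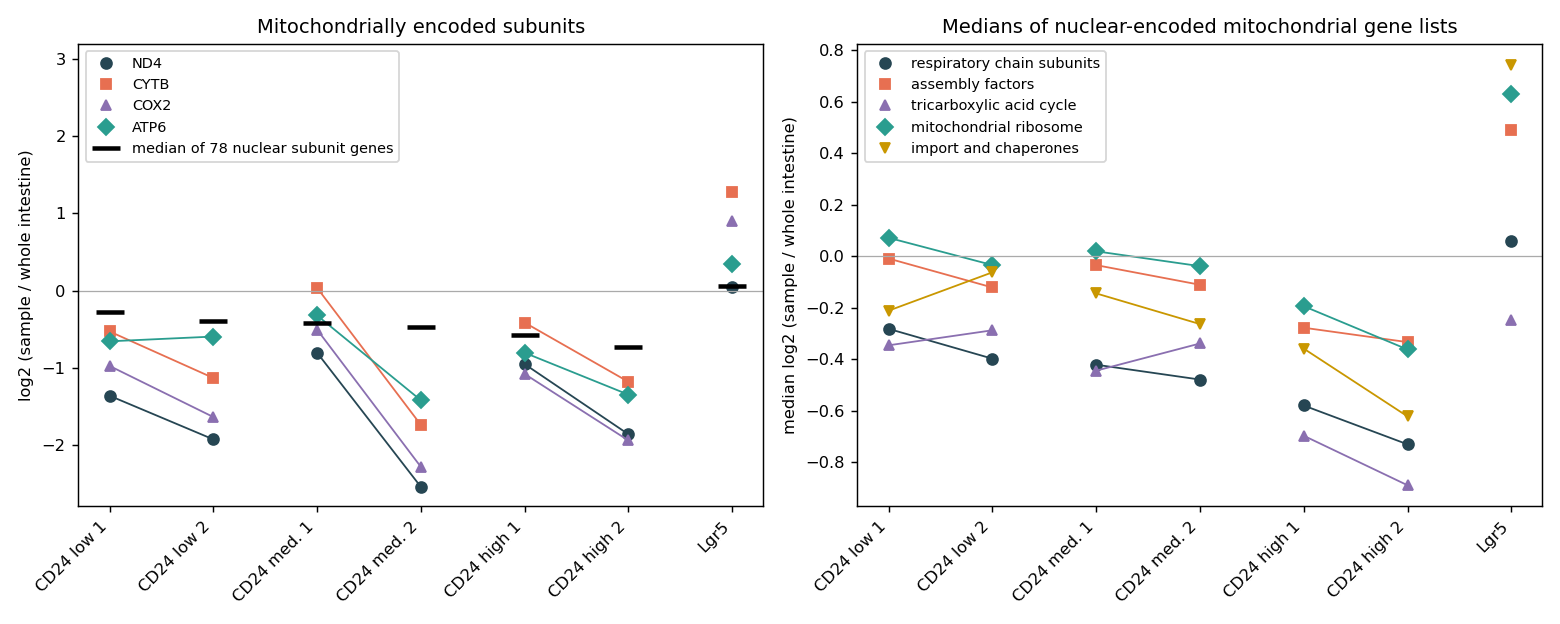
The left panel shows 4 mitochondrially encoded genes on the 7 arrays with the median of 78 nuclear subunits, and the right panel the medians of 5 nuclear gene lists, all as log2 of the sample over whole small intestine, with lines that join replicates. All 5 nuclear lists are lowest in CD24 high cells and highest in Lgr5 cells, where import and chaperone genes reach 0.74, and the mitochondrially encoded genes differ most between the replicates of CD24 medium.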

How the data were processed

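RNA of 7 sorted samples was isolated with Trizol, and 100 ng went through a linear amplification kit for small amounts, the sample in Cy3 and whole small intestine in Cy5, per the labels' protocols. The deposited array files give the intensity of each spot and its background in both dyes, from Agilent Feature Extraction 10.5.1.1 and a log10 ratio, per the file headers. The deposited series matrix holds that log10 ratio with its sign turned, which was checked spot by spot. The medians of its columns are 0, and −0.01852 in CD24 high replicate 2.

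Mean signals were corrected by normexp with an offset of 50 and normalised within arrays by loess (span 0.3) in limma 3.58.1 under R 4.3.3. Control spots had no weight. Probes were kept if 2 or more of the 7 arrays showed them well above background, 24509 of 41174, and probes of a gene were averaged, 123 of 131 for the members. The fit gave each group its own mean on the 7 arrays, with 3 residual and 3.41 prior degrees of freedom. P-values were adjusted over 17398 genes, or 17352 for comparisons with Lgr5. The median sample intensity was 77.6 to 107.5, and the number of arrays limits the precision. Probe positions are the array files' mm9 coordinates, with no exon annotation used here.

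Genes given in full are up to 4 members with the largest differences past the threshold in each direction and comparison, the members with the widest and narrowest range in each complex, and the isoform families. A gene that this rule selects is not reported here. Of other genes up to 2 a list and comparison may be named. Cox7c, Ndufaf1, Sdhaf2 and Ndufa12 were chosen after their values were seen. Members and lists were chosen with earlier results of these data known. The fit was tested on simulated data, drawn as independent normal values with the SDs of the fit itself. These data held no slide or replicate effect, so the test does not bear on such effects. The alternatives are in the closing section.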

Additional observations from a re-analysis of the deposited data

How the results depend on the processing

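Of 156 medians and counts recomputed under settings other than the omission of 1 array, 126 stayed within 1.5 times the count or within the replicate SD of the median, and no median changed sign. Main counts were 0 for CD24 low against CD24 medium, 18 for CD24 low against CD24 high, 11 for CD24 medium against CD24 high, and 14, 16 and 55 for CD24 low, CD24 medium and CD24 high against Lgr5. Without background subtraction they were 22 for CD24 low and 25 for CD24 medium against Lgr5 and 19 for CD24 medium against CD24 high. With an offset of 16 they were 6 and 5 against Lgr5 and 10 and 6 against CD24 high. Processed signals and the series matrix gave 5 for CD24 medium against Lgr5 and a median of 0.387 for CD24 medium against CD24 high. With the sample channel alone the counts were 36 and 37 against Lgr5 and 44 and 34 against CD24 high, with medians of −0.647, −0.696 and −1.239 for CD24 low, CD24 medium and CD24 high against Lgr5 and 0.584 and 0.511 against CD24 high. The slide as a term gave 2 and 6 calls for CD24 low and CD24 medium against Lgr5, and medians of −0.286, −0.445 and −0.675 for the 3 levels. The compared groups alone gave 7 for CD24 low against CD24 high and 3 for CD24 low against Lgr5. No filter gave a median of −0.679 for CD24 high against Lgr5. Within slides, alternatives added after seeing the data, the medians were −0.647 for CD24 high against Lgr5 on slide 1 and 0.491 for CD24 low against CD24 high on slide 2. In each case the cause was not tested, beyond the fewer samples of the last fits. The counts are given without the share of all genes called under the same setting. A change in the members alone can therefore not be told from a change in all genes by these counts. The slide as a random block had a correlation of 0.024.

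Leaving out 1 array gave 2 to 18 calls for CD24 low against CD24 high, 0 to 11 for CD24 medium against CD24 high, 4 to 12 for CD24 low, 1 to 11 for CD24 medium and 33 to 49 for CD24 high against Lgr5. The upper ends of 18 and 11 are the main counts and came from leaving out the Lgr5 array, which adds nothing to the spread in these comparisons. For CD24 low against CD24 high, leaving out any Dll1 array gave fewer than 18. With 1 array left out, the medians were 0.037 to 0.152 for CD24 low against CD24 medium, 0.313 to 0.491 and 0.139 to 0.397 against CD24 high, and −0.48 to −0.369, −0.568 to −0.462 and −0.882 to −0.647 against Lgr5 for CD24 low, CD24 medium and CD24 high. Of 600 medians of single complexes under all alternatives, 65 moved by more than the replicate SD. Leaving out an array of a CD24 level leaves a group with 1 array, which is then assumed to vary like the others. Of 528 values of single genes, 423 kept direction and call, 104 lost the call, 60 of them without 1 array, and 1 reversed, Ndufa1 in CD24 high against Lgr5 with the sample channel alone (−0.052).

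Deviations of same-numbered replicates correlated over the 88 members (r = 0.815 for CD24 low and CD24 medium, 0.563 for CD24 low and CD24 high, 0.748 for CD24 medium and CD24 high). These values include Cox7c, whose replicate gaps of 1.77, 1.94 and 1.48 were the widest in CD24 low, CD24 medium and CD24 high. The correlation without Cox7c was not computed. Over all genes the deviations did not go together in every pair of levels (r = 0.47, −0.013 and 0.293 in the order of the pairs above). Same-numbered replicates were not treated as pairs. With the replicate number as a block on the 6 Dll1 arrays the counts were 0, 26 and 15 for CD24 low against CD24 medium, CD24 low against CD24 high and CD24 medium against CD24 high.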
